A study of Mus musculus with 7 samples.

Results

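The EGFR family is described here in bulk RNA-seq of mouse pancreatic ductal adenocarcinoma (PDA) tumors through 10 of the 38026 genes in the expression table. They were chosen by name, with earlier results of these data known, and each name matched 1 gene. They are the receptors *Egfr*, *Erbb2* and *Erbb3* and the ligands *Areg*, *Ereg*, *Hbegf*, *Tgfa*, *Btc*, *Nrg1* and *Epgn*. The data come from 7 subcutaneous tumors of C57BL/6 mice, taken 2 weeks after injection of cells of a PDA line. The line was derived from a pancreatic tumor of a genetically engineered mouse carrying Pdx1-Cre, which acts in the pancreas, and the cells of both groups share that origin. Cells of both groups were also transduced with a lentivirus that delivers Cas9 and a guide RNA and were selected with puromycin. The guide was a scrambled sequence in the control tumors (sgScramble, replicates 1 to 4) or was directed at *Krt19*, which encodes the epithelial keratin KRT19 (sgKrt19, replicates 5, 6 and 8). The tumors had no further treatment, and the mice had been bought at 6 weeks of age and housed for 2 weeks. The sources do not say which guide the sgKrt19 tumors carried, or whether a polyclonal line or 1 clone was injected. The comparison asks how gene expression in the tumor differs when *Krt19* is edited in the injected cells, while the host cells of the tumor are unedited.

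EGFR, ERBB2 and ERBB3 are receptor tyrosine kinases that signal as dimers. EGFR is bound by EGF, TGFA, AREG, EREG, BTC, HBEGF and EPGN, ERBB3 is bound by neuregulins such as NRG1, and ERBB2 has no known ligand of its own and acts as a partner of the others. ERBB3 has little kinase activity and links its partners to PI3K. The ligands are made as membrane proteins and are released by ADAM proteases. Signaling through EGFR is known to take part in the formation of pancreatic tumors in mice.

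Levels are given as normalized read counts, the reads of a gene over the size factor of its library. Errors after ± are SDs over the tumors of a group. Depth was 40781199 to 44972100 reads per library, and 3 reads, the floor below which a gene is taken as undetected, were worth 2.74 to 3.47. Mitochondrial genes held 3.02% to 4.74% of the reads. The edited gene checked the labels: *Krt19* was 17841 to 27618 in sgScramble tumors and 1606 to 2470 in sgKrt19 tumors, with a mean of 8.73% of the control mean. Log2 fold changes are sgKrt19 minus sgScramble on log2(value + 1), and limma was run on the 21322 genes that reached a value of 10 in 3 or more libraries, with p-values adjusted over all of them.

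Of the 10 family genes, 9 were tested. *Erbb3* rose 2.77-fold in sgKrt19 tumors, *Egfr* fell to 0.480 of its control level and *Nrg1* to 0.522, and the other 6 were not called. In bulk tumors, fewer cells of a type and less RNA per cell cannot be told apart. The family was called in 3 of 9 cases (33.3%), beside 34% of all genes tested, a share near the background. In the same test 17.9% of all genes were higher and 16% lower in sgKrt19 tumors, and 1 and 2 of the family genes were. The groups did not overlap for 4 of the 9, beside 41.1% of all genes. The median log2 fold change was 0.04 over the 9 and 0.01 over all genes tested. Library size as the only scaling shifted the median of all genes to −0.21.

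**Figure D1:**
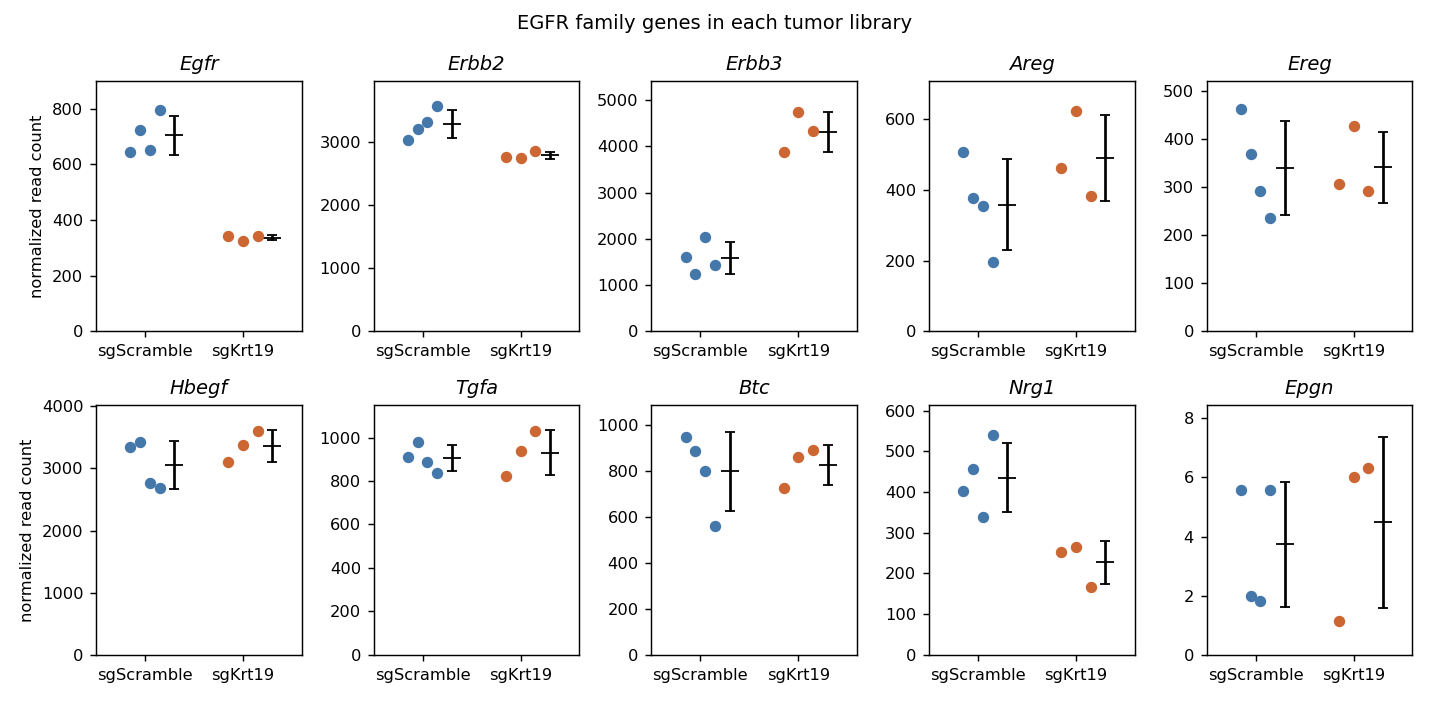
Normalized read count (vertical axis, from 0, a separate scale per gene) of each family gene in 4 sgScramble (blue) and 3 sgKrt19 (orange) tumors. Points are tumors, and the black bars give the mean and SD. *Erbb3* lies higher and *Egfr*, *Erbb2* and *Nrg1* lie lower in all 3 sgKrt19 tumors than in any sgScramble tumor, and the groups overlap for the other 6 genes.

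**Figure D2:**
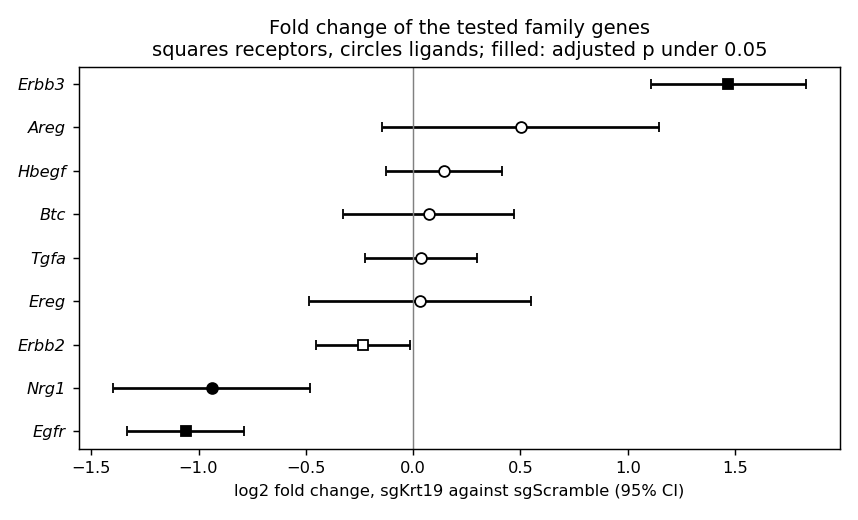
Log2 fold change of the 9 tested family genes with 95% confidence intervals (horizontal axis, 0 marks no difference). Squares are receptors, circles are ligands and filled symbols have a limma adjusted p under 0.05. The filled symbols are *Erbb3* at 1.47, *Nrg1* at −0.94 and *Egfr* at −1.06.

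The receptor genes were examined first, with their promoters. Of the 10 genes, 6 had a promoter entry in RefSeq (GRCm38.p6). *Erbb3*, *Ereg*, *Hbegf* and *Nrg1* had none. The 250 bases before the RefSeq start are shown for *Egfr*, a receptor that fell, and for *Erbb2*, a receptor that was not called. They are also shown for the fourth receptor gene *Erbb4*, described below with the other genes of the family. The window of *Erbb2* ends past 98412470, the start given below from another annotation (GENCODE M21). The windows lie at chr11:16751953-16752202 on the plus strand, chr11:98412234-98412483 on the plus strand and chr1:69108060-69108309 on the minus strand, and each reads 5′ to 3′ along its gene, with a GC box in capitals.
Egfr: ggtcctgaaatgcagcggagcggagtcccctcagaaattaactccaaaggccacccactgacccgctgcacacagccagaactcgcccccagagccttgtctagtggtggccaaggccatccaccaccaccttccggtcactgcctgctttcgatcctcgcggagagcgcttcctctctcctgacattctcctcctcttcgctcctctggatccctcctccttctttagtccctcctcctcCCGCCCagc
Erbb2: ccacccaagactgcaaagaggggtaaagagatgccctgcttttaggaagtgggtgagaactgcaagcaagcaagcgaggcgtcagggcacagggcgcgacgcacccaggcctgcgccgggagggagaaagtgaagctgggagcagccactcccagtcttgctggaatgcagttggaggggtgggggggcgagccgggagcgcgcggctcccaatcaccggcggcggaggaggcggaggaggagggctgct
Erbb4: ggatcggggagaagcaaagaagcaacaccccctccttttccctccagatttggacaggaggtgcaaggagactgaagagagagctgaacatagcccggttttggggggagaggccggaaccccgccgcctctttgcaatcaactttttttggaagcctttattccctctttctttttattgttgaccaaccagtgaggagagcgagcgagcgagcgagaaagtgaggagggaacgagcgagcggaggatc
A GC box (GGGCGG, or CCGCCC on the other strand) was found once, in *Egfr*, starting at −9 from the start. Of all 32851 promoter entries, 32.7% hold one in a window of the same length. No TATA box (TATAAA, or TTTATA on the other strand, in 12.4% of entries) and no AP-1 site (TGAGTCA or TGACTCA, in 4.46%) was found in the 3 windows. Their GC content was 60.8%, 66.0% and 54.0%, beside a median of 52.4% over all entries.

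*Egfr* (ENSMUSG00000020122.16, plus strand of chromosome 11, 16752203 to 16918158, GRCm38) encodes the receptor of most of the ligands listed. It was 644, 725, 653 and 795 in sgScramble tumors and 342, 325 and 341 in sgKrt19 tumors. Every sgKrt19 tumor lay below every sgScramble tumor, and the 3 sgKrt19 values were close together. The means were 704 ± 70.6 (n = 4) and 336 ± 9.65 (n = 3). The log2 fold change was −1.06 (SE 0.123, 95% interval −1.33 to −0.79, limma adjusted p = 0.000242).

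*Erbb3* (ENSMUSG00000018166.8, minus strand of chromosome 10, 128567523 to 128589652) encodes the neuregulin receptor that couples to PI3K. It was 1614, 1229, 2035 and 1441 in sgScramble tumors and 3878, 4742 and 4331 in sgKrt19 tumors. Every sgKrt19 tumor lay above every sgScramble tumor. The means were 1580 ± 342 (n = 4) and 4317 ± 432 (n = 3), and the log2 fold change was 1.47 (SE 0.162, 95% interval 1.11 to 1.83, limma adjusted p = 0.000197).

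*Erbb2* (ENSMUSG00000062312.5, plus strand of chromosome 11, 98412470 to 98437716), which encodes the receptor without a ligand, had the smallest difference of the 3 receptor genes. It was 3036, 3214, 3327 and 3572 in sgScramble tumors and 2771, 2751 and 2855 in sgKrt19 tumors. The sgKrt19 values all lay under the lowest control value, by a margin smaller than the range of the controls. The means were 3287 ± 224 (n = 4) and 2793 ± 55.2 (n = 3). The log2 fold change of −0.23 (SE 0.098, 95% interval −0.45 to −0.02) did not pass the threshold (limma adjusted p = 0.0897). It did so with library size as the only scaling, at −0.45 (adjusted p = 0.0152), where the median gene stood at −0.21.

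Because the receptor genes moved apart, their make-up was compared within each tumor, per kilobase of exon so that genes of different length can be set side by side. Of the summed count per kilobase of *Egfr*, *Erbb2* and *Erbb3*, *Erbb3* held 23.1% to 32.7% in sgScramble tumors and 53.4% to 58.6% in sgKrt19 tumors. *Erbb2* held 61.7% to 69.7% and 39.3% to 44.1%. *Egfr* held 5.57% to 7.23% and 2.13% to 2.50%. In these shares *Erbb2* was the leading receptor transcript in each sgScramble tumor and *Erbb3* in each sgKrt19 tumor. The ratio of *Erbb3* to *Egfr* per kilobase was 3.19 to 5.87 in sgScramble tumors and 21.3 to 27.5 in sgKrt19 tumors. It does not depend on the scaling of the libraries, since both genes are read from the same tumor, but it does depend on the length used. Per kilobase of the coding part it was 1.53 to 2.82 and 10.2 to 13.2, and *Egfr* held 11.5% to 14.7% and 4.48% to 5.25% of the receptor sum. With either length *Erbb2* led in each sgScramble tumor and *Erbb3* in each sgKrt19 tumor. These shares follow from the levels above and were not tested separately.

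**Figure D3:**
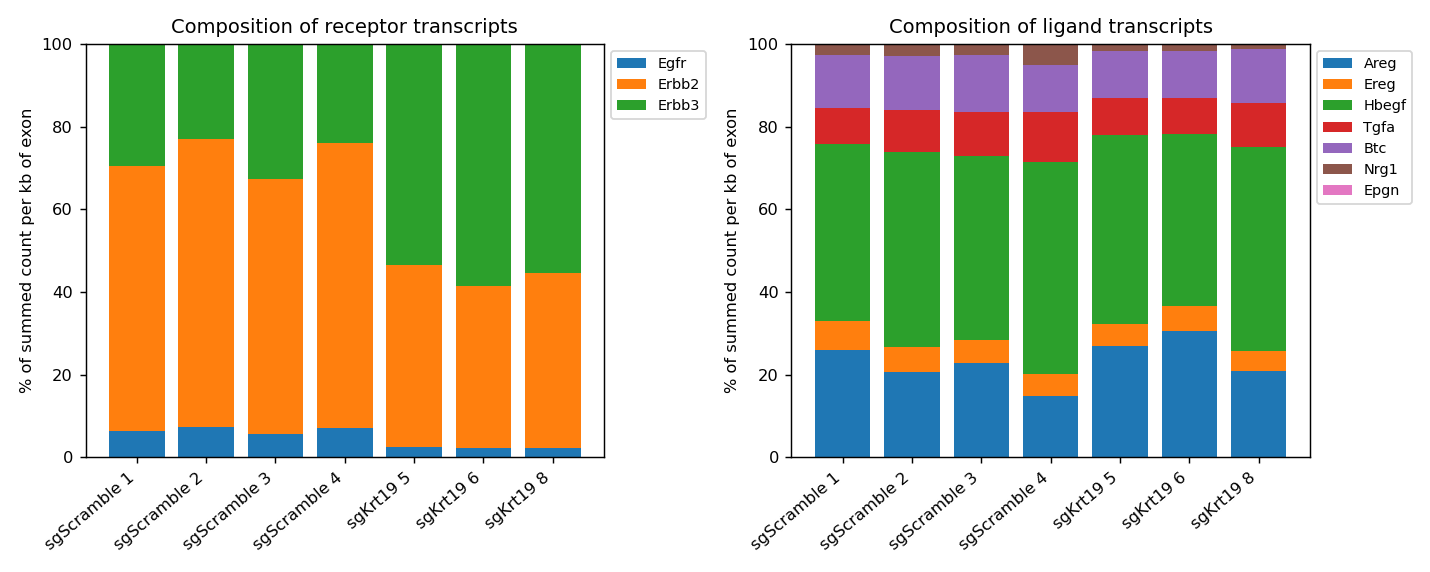
Share of each receptor gene (left) and each ligand gene (right) in the summed normalized count per kilobase of exon, in percent (vertical axis), with 1 bar per tumor. *Erbb3* takes 23.1% to 32.7% of the receptor bar in sgScramble tumors and 53.4% to 58.6% in sgKrt19 tumors, and *Nrg1* is the one ligand gene whose shares do not overlap between the groups.

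Among the 7 ligand genes, *Nrg1* was the only one called, and 5 others were tested and not called. *Nrg1* (ENSMUSG00000062991.8, minus strand of chromosome 8, 31814551 to 32884029, from an earlier version of the gene in the annotation) encodes neuregulin 1, which binds ERBB3 and ERBB4. It was 402, 457, 340 and 540 in sgScramble tumors and 252, 264 and 167 in sgKrt19 tumors. All 3 sgKrt19 values were below the lowest control value, and sgKrt19 replicate 8 was the lowest. The means were 435 ± 84.9 (n = 4) and 228 ± 52.9 (n = 3), and the log2 fold change was −0.94 (SE 0.206, 95% interval −1.40 to −0.48, limma adjusted p = 0.0073). The annotation lists 12 coding transcripts of *Nrg1*, which counts per gene do not tell apart. The neuregulin transcript thus fell in the same tumors in which the transcript of its receptor *Erbb3* rose.

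*Hbegf* (ENSMUSG00000024486.6, minus strand of chromosome 18, 36504927 to 36515805) encodes heparin-binding EGF, a ligand of EGFR and ERBB4, and had the highest level per kilobase of the ligands. It was 3339, 3423, 2765 and 2688 in sgScramble tumors and 3106, 3373 and 3607 in sgKrt19 tumors. The groups overlapped, with a log2 fold change of 0.14 (95% interval −0.13 to 0.42, limma adjusted p = 0.375). *Tgfa* (ENSMUSG00000029999.14, plus strand of chromosome 6, 86195223 to 86275719) encodes TGFA, a ligand of EGFR. It was 912, 981, 889 and 837 in sgScramble tumors and 823, 937 and 1032 in sgKrt19 tumors; the lowest and the highest of the 7 values were both from sgKrt19 tumors. Its log2 fold change was 0.04 (95% interval −0.22 to 0.30, limma adjusted p = 0.826). These 2 intervals were the narrowest of the ligand genes.

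The remaining 4 ligand genes, *Epgn*, *Ereg*, *Areg* and *Btc*, lie in a row on chromosome 5 within 375.5 kb, with no other protein-coding gene of the annotation between them. *Areg* (ENSMUSG00000029378.5, 91139599 to 91148432) encodes amphiregulin, a low-affinity ligand of EGFR. It was 509, 376, 355 and 195 in sgScramble tumors and 464, 623 and 384 in sgKrt19 tumors. The spread within each group was wide, and 1 control tumor exceeded 2 of the sgKrt19 tumors. The log2 fold change of 0.50 did not pass the test (95% interval −0.14 to 1.15, limma adjusted p = 0.201), and an increase of up to 2.21-fold lies within its interval. Leaving out 1 library moved it between 0.23 (without sgScramble replicate 4, the lowest control) and 0.695 (without sgScramble replicate 1, the highest control), and it was 0.12 with scaling to epithelial markers. It was not called in any of these settings.

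*Ereg* (ENSMUSG00000029377.5, 91074622 to 91093646) encodes epiregulin. It was 462, 370, 291 and 236 in sgScramble tumors and 306, 426 and 291 in sgKrt19 tumors. The sgKrt19 values all lay inside the range of the controls, and the log2 fold change was 0.03 (95% interval −0.49 to 0.55, limma adjusted p = 0.929). *Btc* (ENSMUSG00000082361.6, 91357261 to 91402994, on the minus strand, unlike the other 3) encodes betacellulin. It was 947, 884, 797 and 559 in sgScramble tumors and 725, 861 and 889 in sgKrt19 tumors. The log2 fold change of *Btc* was 0.07 (95% interval −0.33 to 0.47, limma adjusted p = 0.776). *Areg*, *Ereg* and *Btc* all had their highest control value in sgScramble replicate 1 and their lowest in sgScramble replicate 4. The directions of *Ereg*, *Hbegf*, *Tgfa* and *Btc* turned under library size as the only scaling, and none of these genes passed the threshold under any setting tried.

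*Epgn* (ENSMUSG00000035020.11, 91027464 to 91035215) encodes epigen. It was 5.57, 1.98, 1.83 and 5.56 in sgScramble tumors and 1.16, 6.00 and 6.30 in sgKrt19 tumors, which correspond to 1 to 6 reads. It was at or under the floor in 3 of the 7 libraries and was not tested. A difference between the groups was not detectable at this depth.

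The nearest protein-coding genes beside the row were read for comparison. *Cxcl2*, a neutrophil chemokine gene, differed by −0.24 on the log2 scale (limma adjusted p = 0.599) and *Mthfd2l*, a mitochondrial folate enzyme gene, by −0.18 (limma adjusted p = 0.299). On the other side *Parm1* rose from 2454 to 3306 in sgScramble tumors to 3605 to 4265 in sgKrt19 tumors (log2 fold change 0.52, limma adjusted p = 0.0124), and *Rchy1*, a ubiquitin ligase gene, was not called at 0.18 (limma adjusted p = 0.318). Among these 7 tested genes of the region only *Parm1* was called.

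**Figure D4:**
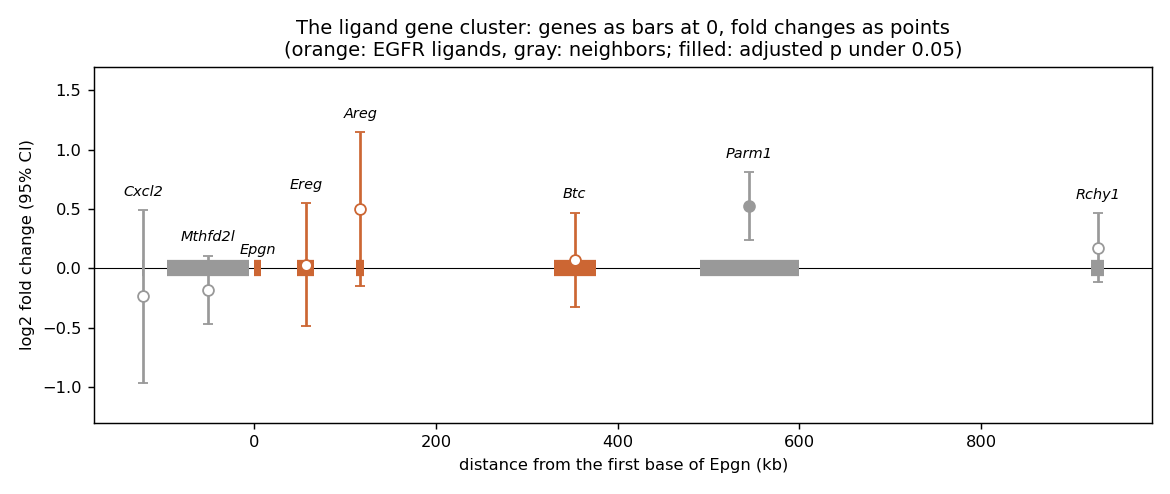
Log2 fold change with its 95% confidence interval (vertical axis) of the genes around the ligand row, by distance in kilobases from the first base of *Epgn* (horizontal axis). Boxes at 0 show the extent of each gene, with ligand genes in orange and neighboring genes in gray, and the filled point has a limma adjusted p under 0.05. Only the point of *Parm1*, at 0.52, is filled, and *Epgn* has none because it was not tested.

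The levels per kilobase of exon ordered the family genes as follows. In sgScramble tumors *Hbegf* (632 ± 78.8) and *Erbb2* (631 ± 43.0) were highest and could not be separated by their values. *Areg* (295 ± 106), *Erbb3* (263 ± 56.8), *Btc* (176 ± 37.6) and *Tgfa* (139 ± 9.25) came next, and each overlapped its neighbor. *Ereg* (82.2 ± 23.8) overlapped *Egfr* (62.2 ± 6.23), which lay above *Nrg1* (42.0 ± 8.20) in every tumor, and *Epgn* was last at 2.07 ± 1.17. In sgKrt19 tumors *Erbb3* (718 ± 71.8) and *Hbegf* (696 ± 51.9) were highest and overlapped, followed by *Erbb2* (536 ± 10.6) and *Areg* (404 ± 100.1). The values of the genes further down, *Btc*, *Tgfa*, *Ereg*, *Egfr*, *Nrg1* and *Epgn*, kept their places and did not overlap between neighbors. The order rests on the length used, and per kilobase of the coding part *Hbegf*, *Tgfa* and *Btc* were the first 3 in both groups.

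Within the summed ligand count per kilobase of exon, *Hbegf* held 42.8% to 51.4% in sgScramble tumors and 41.6% to 49.5% in sgKrt19 tumors. *Areg* was second in each tumor, with 14.83% to 25.96% and 20.97% to 30.57%, but per kilobase of the coding part it held 3.22% to 6.28% and 4.77% to 7.72%, behind *Tgfa* and *Btc*. *Nrg1* held 2.41% to 4.82% and 1.07% to 1.73%, and was the only ligand gene whose shares did not overlap between the groups. With the longest coding transcript as the length, *Nrg1* held 6.23% to 11.3% and 2.71% to 4.47%, and the groups again did not overlap.

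Other receptor and ligand genes of the family were read beside the 10. *Erbb4* (ENSMUSG00000062209.15, minus strand of chromosome 1, 68032186 to 69108059), the other neuregulin receptor, was 24.2, 25.7, 37.4 and 33.4 in sgScramble tumors and had no read in any sgKrt19 tumor. It passed the filter through the sgScramble tumors alone. Against the floor of 3 reads per library it was at least 8.70-fold lower in sgKrt19 tumors. Its level per kilobase in sgScramble tumors, 2.44 ± 0.511, was that of a low transcript beside *Erbb3* or *Erbb2*. *Egf*, the ligand that names the family, was 56.7 to 97.4 in sgScramble tumors and 41.6 to 57.0 in sgKrt19 tumors (log2 fold change −0.63, limma adjusted p = 0.0684), and it passed the threshold in 3 of 14 other settings. *Nrg2* (−0.41, limma adjusted p = 0.483) and *Nrg4* (0.16, limma adjusted p = 0.418) were not called. *Nrg3* was not analysed here.

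Cell type markers were read beside these results. Their counts of called markers stand beside 17.9% of all genes tested that were called higher and 16% called lower. Of 10 tested markers of epithelial cancer cells, 5 rose (*Cdh1*, *Krt8*, *Krt18*, *Krt20* and *Elf3*) and 0 fell, and their summed level was 126402 to 172024 in sgScramble tumors and 263047 to 274150 in sgKrt19 tumors, 1.77 times as high by the means. Most of the sum came from *Krt8* (means 55494 and 103416) and *Krt18* (49260 and 95589). The other 5 were not called and did not point one way, with log2 fold changes of −1.23 for *Cldn4*, −1.03 for *Krt7*, 0.06 for *Epcam*, 0.47 for *Cldn7* and 0.80 for *Ocln*. When each library was scaled to the mean log2 value of the 10 epithelial markers, a setting chosen after the data were seen, *Erbb3* had a difference of 1.09 on the log2 scale (limma adjusted p = 0.0168). In that setting *Egfr* stood at −1.44 (limma adjusted p = 0.00195) and *Nrg1* at −1.32 (limma adjusted p = 0.00727).

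Schwann and nerve cells also express *Erbb3*, and of 7 tested markers 1 rose (*S100b*) and 1 fell (*Mbp*). Their summed level was 2141 to 2727 in sgScramble tumors and 2304 to 2843 in sgKrt19 tumors, and *Sox10*, a defining gene, averaged 4.398 and 8.221. Of 7 tested markers of skin keratinocytes 2 rose and 1 fell, with sums of 418 to 738 and 808 to 906. *Krt1*, *Krt6a* and *Krt17* were at or under the floor in all libraries. *Ivl* (means 169 and 467) and *Krt15* (17.5 and 44.0) rose, and *Lor* (24.7 and 8.41) fell. The other 4 were not called, with log2 fold changes of −0.01 for *Krt14*, 0.02 for *Krt10*, −0.45 for *Trp63* and −0.70 for *Sbsn*. Fibroblasts express *Egfr* and *Nrg1* as well, and 0 of 10 fibroblast markers were called, with sums of 101528 to 235754 and 117409 to 133286.

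Immune and muscle transcripts moved with the groups too. T cell markers rose in 8 of 9 cases, with a sum 5.68 times as high in sgKrt19 tumors (825 to 1417 against 4235 to 7494), and neutrophil markers rose in 5 of 6 (740 to 1448 against 2129 to 2281). Of 11 macrophage and monocyte markers 4 rose and 1 fell, and their sums overlapped at 32691 to 47107 and 41973 to 60513. Of 7 regulatory T cell markers 4 rose and 1 fell, with overlapping sums of 1204 to 1645 and 1359 to 1458. Of 9 mast cell and basophil markers 1 fell, and their sums overlapped at 789 to 2597 and 1497 to 1981. Endothelial markers rose in 4 of 7 cases (3822 to 5654 against 5861 to 6558), and 0 of 5 tested adipocyte markers were called (767 to 3305 against 1820 to 2872).

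Skeletal muscle markers rose in 11 of 11 cases, with sums of 368 to 3425 and 26041 to 36903, and the highest control was sgScramble replicate 3. That tumor also had the highest control value of *Erbb3*. Without it the log2 fold change of *Erbb3* was 1.599 (limma adjusted p = 5.01e-05), that of *Egfr* −1.09 (limma adjusted p = 0.000456) and that of *Nrg1* −1.05 (limma adjusted p = 0.00493). The part of the epithelial, fibroblast, muscle, immune, endothelial, keratinocyte, adipocyte and Schwann cell transcripts in the results of the family was not tested.

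To place the receptors in their pathway, genes that act around them were read from lists. The lists were written from general knowledge, but with earlier results of these data known. Counts are of tested genes with a limma adjusted p under 0.05, beside 34% of all genes. Named genes are up to 3 called in each direction by size. Without 1 library, all genes called numbered 2481 to 4103 higher and 2232 to 3611 lower, in place of 3820 and 3420. Counts of a list without 1 library are therefore not to be read beside the 34%. Of 11 genes for ligand shedding, 1 rose and 3 fell (36.4%), with a median log2 fold change of −0.21. *Rhbdf1* and *Rhbdf2*, the iRhom genes that escort ADAM17 to the cell surface, fell from 1961 to 2650 to 1010 to 1547 (log2 fold change −1.02, limma adjusted p = 0.00153) and from 1464 to 1823 to 1207 to 1347 (−0.40). *Timp3*, which encodes an inhibitor of ADAM17, fell by 0.86 on the log2 scale. The sheddase gene *Adam9* rose by 0.45.

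Of 18 genes for receptor inhibition and turnover, 3 rose and 3 fell (33.3%, median −0.20). *Lrig3*, a relative of the EGFR inhibitor gene *Lrig1*, had the largest rise, from 284 to 447 in sgScramble tumors to 768 to 1016 in sgKrt19 tumors (log2 fold change 1.27, limma adjusted p = 0.000929). *Lrig1* itself fell by 0.37. *Cblc*, a ubiquitin ligase gene, and *Ptprj*, a receptor phosphatase gene, rose by 0.65 and 0.37. *Grb14*, an adaptor gene, fell from 479 to 584 to 164 to 235 (log2 fold change −1.38, limma adjusted p = 0.000231), and *Cav1*, a caveola gene, fell by 0.52. Without sgScramble replicate 2 or without sgKrt19 replicate 8 this list had 3 calls in place of 6.

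Of 17 genes from the adaptors to ERK, 2 rose and 6 fell (47.1%, median −0.25). The RAS gene *Hras* and the MEK gene *Map2k2* rose by 0.52 and 0.39. The largest decreases were those of *Braf* (−0.68), *Gab1* (−0.51) and *Ptpn11*, which encodes the phosphatase SHP2 (−0.46). This count was the least steady of the lists, with 2 calls without sgScramble replicate 2 or without sgKrt19 replicate 5. It was 3 without sgScramble replicate 4 and 5 without sgKrt19 replicate 8. Over all genes, calls higher also fell to 2481 without sgKrt19 replicate 5, and calls lower to 2232 without sgScramble replicate 2. Of 14 genes for PI3K-AKT and other arms, 1 rose and 3 fell (28.6%, median −0.16). *Pik3r3*, a regulatory subunit gene of PI3K, rose by 0.61, and *Plcg1* (−0.66), *Stat5a* (−0.62) and *Stat5b* (−0.54) fell.

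Of 21 genes of ERK pathway output and feedback, 3 rose and 5 fell (38.1%, median −0.12). *Spred3*, a feedback inhibitor gene, fell from 478 to 809 to 186 to 201 (log2 fold change −1.70, limma adjusted p = 0.00024). The ETS factor gene *Etv1* fell by 1.16 and the ERK phosphatase gene *Dusp4* by 0.55. *Epha4*, *Phlda1* and the feedback inhibitor gene *Spry1* rose by 0.66, 0.47 and 0.45. *Spred1* (−0.33) and *Spred2* (−0.50), relatives of *Spred3*, were also called and fell. Of the called feedback genes, *Spry1* thus rose, and *Dusp4*, *Spred1*, *Spred2* and *Spred3* fell. The count was 5 without sgScramble replicate 2 or 4 and 4 without sgKrt19 replicate 8.

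Of 12 partners and co-receptors, 4 rose and 3 fell (58.3%, median −0.03). *Muc1*, a membrane mucin gene, rose from 9407 to 16479 to 20128 to 24702 (log2 fold change 0.91). *Cd82*, a tetraspanin gene, rose by 0.75 and *Cdh1*, which encodes E-cadherin and is also on the epithelial list, by 0.55. *Nrp1*, a semaphorin and VEGF co-receptor gene, fell from 868 to 1562 to 449 to 512 (log2 fold change −1.24, limma adjusted p = 0.000801), and the receptor tyrosine kinase genes *Igf1r* (−0.70) and *Axl* (−0.49) fell as well. Without sgKrt19 replicate 8 the list had 4 calls in place of 7. Scaling to epithelial markers was not run for the genes of these lists. By the rule of size 31 genes were named from the 6 lists, and 16 of them were called in all 14 settings that were run. Among these 16 were *Rhbdf1*, *Lrig3*, *Grb14*, *Spred3*, *Muc1* and *Nrp1*. The other 15 lost the call in at least 1 of the 14, 9 of them with library size as the only scaling, and 0 of the 31 turned direction in these 14. *Ptprj* lost it in 7, *Cblc*, *Gab1*, *Igf1r* and *Map2k2* in 5, *Hras*, *Phlda1* and *Rhbdf2* in 4, *Axl* and *Lrig1* in 3, *Adam9* and *Dusp4* in 2 and *Epha4*, *Pik3r3* and *Spry1* in 1.

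**Figure D5:**
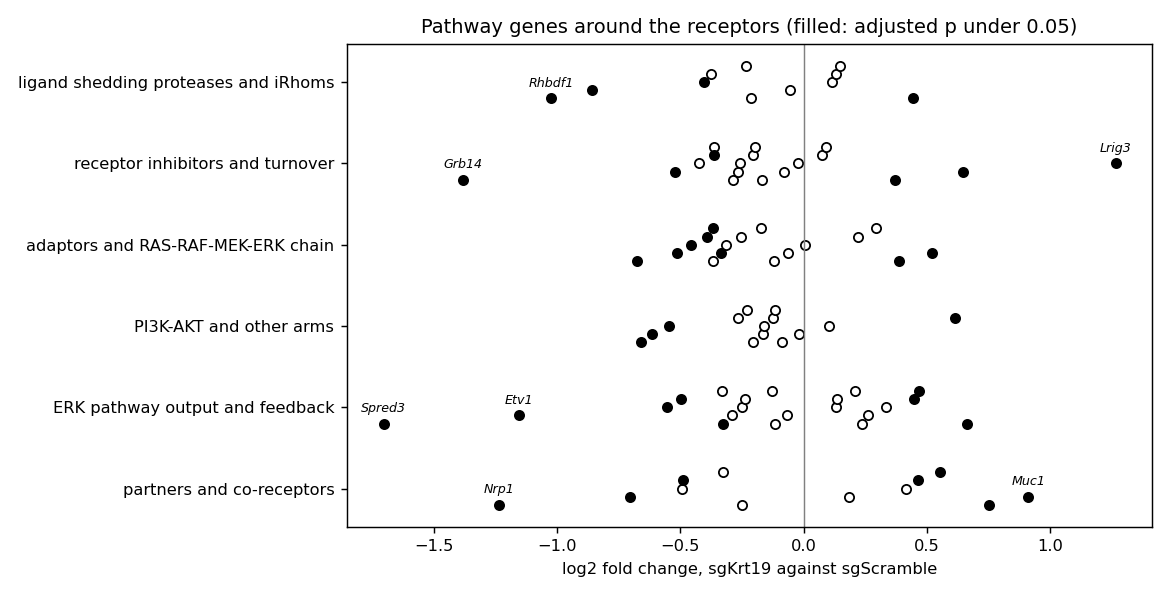
Log2 fold change (horizontal axis) of every tested gene of the 6 pathway lists (1 row each; vertical offsets within a row only separate the points). Filled points have a limma adjusted p under 0.05, and labels mark genes with a change of at least 0.9 in size. Filled points lie on both sides of 0 in each list, with *Spred3* at −1.70 and *Lrig3* at 1.27 farthest out.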

How the data were processed

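Poly(A) RNA per the labels was sequenced from 7 tumors (4 sgScramble, 3 sgKrt19), with a stranded TruSeq kit named in the methods. The values are a signal: the authors counted reads per gene, divided them by a size factor per library and deposited 1 column per library. Every value was a whole multiple of 1 read, so whole reads were recovered for 100% of values (within 0.1 read). The genome build is mm10 in the submitters' processing notes; the aligner, the counting program and its use of strand are not given in the sources used here. Overlaps with genes on the opposite strand cover 0.173% of exon bases of *Erbb2*, 3.42% of *Ereg*, 4.66% of *Nrg1* and 1.82% of *Tgfa*, and up to 5.38% of *Egf* and 6.06% of *Nrg4*. Lengths and positions came from GENCODE M21 (GRCm38), which shares 37095 (97.6%) of the versioned gene identifiers.

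The members and lists were chosen with earlier results of these data known. The groups were compared with limma 3.58.1 (lmFit, eBayes with trend; R 4.3.3) on log2(value + 1), with Benjamini-Hochberg adjustment and a threshold of 0.05. A pseudocount of 1 understates changes of low genes. Alternatives were other pseudocounts, no filter, TMM or library size scaling, edgeR 4.0.16 and DESeq2 1.42.0 on recovered reads, scaling to epithelial markers and leaving out each library. The sources do not name the host of each tumor, so p-values measure the spread between these samples, which may in part be technical, and no batch is labelled. The floor of 3 reads covers counting error only.

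Named genes were, by rule, the 10 members, *Erbb4*, *Egf*, the other neuregulins, *Krt19*, up to 3 called genes of each pathway list in each direction and the nearest protein-coding genes beside the ligand row. *Spred1*, *Spred2*, *S100b*, *Mbp*, *Sox10* and the markers named with the cell type lists were chosen after their values were seen.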

Additional observations from a re-analysis of the deposited data

Results flagged for a closer look

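Among the 4 sgScramble tumors, 27 results were searched for a value that stands far from the others, and 2 were found. Chance marks about 1 in 20 groups. *Nrg4* was 476, 479 and 472 in sgScramble replicates 1 to 3 and 383 in replicate 4, and the gap of replicate 4 was 0.927 of the range of the group, above Dixon's critical value at the 95% level. The summed level of skeletal muscle markers was 368 to 376 in sgScramble replicates 1, 2 and 4 and 3425 in replicate 3, with a gap of 0.997 of the range.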

How the results depend on the processing

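No paired analysis was possible because the groups share no replicate numbers. The directions and calls of *Egfr*, *Erbb3* and *Nrg1* held in all 15 alternatives, with log2 fold changes of −1.4408 to −0.9997, 1.0882 to 1.5992 and −1.3196 to −0.7303. Library size as the only scaling called *Erbb2* (−0.45) and turned *Ereg* (−0.18), *Hbegf* (−0.072), *Tgfa* (−0.18), *Btc* (−0.14) and *Nrg4* (−0.056); the median gene moved to −0.21. Scaling to epithelial markers, added after the data were seen, turned *Ereg* (−0.35), *Hbegf* (−0.24), *Tgfa* (−0.34) and *Btc* (−0.31). *Ereg* was also −0.0054 in edgeR and −0.0027 in DESeq2. Without 1 library, *Ereg* ranged from −0.14 to 0.19, *Tgfa* from −0.040 to 0.12 and *Btc* from −0.089 to 0.16. None of these 4 ligand genes was called in any setting.

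Of the 21322 genes tested, those called higher numbered 2187 and those called lower 5705 with library size only, in place of 3820 and 3420. Without 1 library they numbered 2481 (without sgKrt19 replicate 5) to 4103 and 2232 (without sgScramble replicate 2) to 3611. With library size only the calls were 2 of the 4 other ERBB genes tested, 10 of 18 for receptor inhibitors and turnover and 9 of 14 for PI3K-AKT. These counts belong beside the 2187 and 5705 of that setting, not beside the 34% of the main test. DESeq2 also called 2 of those 4 ERBB genes, again *Erbb4* and *Egf*. The share of all genes that DESeq2 called is not given here, so its count is not to be read beside the 34% either. *Erbb4* was among the calls in every setting, and it passed the filter through the sgScramble tumors alone. Without 1 library, calls ranged from 1 to 2 for the other ERBB genes, 3 to 6 for inhibitors and turnover, 2 to 7 for adaptors to ERK, 4 to 8 for ERK output and 4 to 10 for partners. The causes were not tested. Depth limits *Epgn* alone among the 10 genes.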
